A study of Mus musculus with 27 samples.

Results

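The quantity described here is the shift, after siRNA against Ptbp1, of a gene's RNA between the chromatin (CH) and nucleoplasm (NP) fractions of mouse embryonic stem cells. For each of 3 replicate numbers it was log2((CH TPM + 1)/(NP TPM + 1)) in siPTBP1 minus the same log ratio in siGFP, which gave 3 paired values a gene (TPM is the abundance of a transcript in a library per length, relative to all others). A positive shift means that the ratio moved toward chromatin and a negative shift that it moved toward nucleoplasm. A gene was included when it had at least 1 TPM in at least 3 of the 12 libraries and was not a mitochondrially encoded mt- gene, which left 19237 of the 53379 genes listed.

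The cells were E14, a mouse embryonic stem cell line, kept on gelatin with LIF, and polyadenylated RNA was sequenced from each fraction. All groups were transfected with siRNA, transfected again and then fractionated: siGFP cells received siRNA against eGFP and siPTBP1 cells siRNA against PTBP1, so the controls are transfected cells too. Each of siGFP CH, siGFP NP, siPTBP1 CH and siPTBP1 NP had 3 libraries. The cytoplasm (CY) of the same treatments and cells that received siRNA against PTBP1 and PTBP2 together (siPTBP1_PTBP2, the double knockdown) are used for values set side by side.

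Ptbp1 encodes polypyrimidine tract binding protein, an RNA-binding protein that sits on pyrimidine-rich stretches such as TCTT and CTCTCT near splice sites and represses exons of neuronal and muscle genes. In cells that are not neurons it is also known to hold back splicing of late introns in several presynaptic genes, whose transcripts then remain in the nucleus. A chromatin fraction is rich in nascent and incompletely spliced transcripts, whereas nucleoplasm holds transcripts that have been released. An NP library can also hold RNA from outside the nucleus. The TPM of a gene does not separate spliced from unspliced RNA, and TPM values of a library are shares of 1 fixed total, so a shift is relative to the other RNA of each fraction. In such bulk libraries fewer cells with a transcript and less of it per cell cannot be told apart.

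Libraries held 13849 to 19509 genes with at least 1 TPM, and their sequencing depth cannot be read from TPM. The knockdown was checked first in the targeted gene. Ptbp1 stood at 659, 349 and 534 TPM in the siGFP CH libraries of numbers 1, 2 and 3 and at 242, 192 and 294 in siPTBP1 CH. In NP it stood at 484, 287 and 401 in siGFP and at 136, 88.6 and 89.2 in siPTBP1. Ptbp1 was lower in the siPTBP1 library than in the siGFP library of the same number in both fractions, and the groups did not overlap in either. Mitochondrially encoded RNA took 9.31% to 20.2% of the TPM of an NP library and 0.574% to 1.68% of a CH library, with overlapping ranges between treatments. By number its NP share was 9.68%, 15.6% and 13.7% in siGFP and 9.31%, 20.2% and 19.3% in siPTBP1, so it was higher in siPTBP1 in numbers 2 and 3. In the CY libraries of both treatments it was 0.0416% to 0.111%. The NP fraction was therefore not purely nuclear, and its other RNA from outside the nucleus was not measured. Some genes differed widely between numbers: Krt18, a keratin, had 428 TPM in siGFP CH of number 1 against 28.2 and 66.6 in numbers 2 and 3.

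Few genes passed the test for the shift. In limma with the replicate number as a block, 16 genes rose (0.0832% of those tested) and 9 fell (0.0468%) at a Benjamini-Hochberg adjusted p under 0.05, which is the threshold for a call throughout; every adjusted p below is from limma. Of the genes tested, 13.0% had an unadjusted p under 0.05. With median-ratio scaling the split was 11 up and 14 down. No gene was called when the 3 paired values alone were used, with 2 residual degrees of freedom (smallest adjusted p 0.496, 793 genes at an unadjusted p under 0.05). An exact sign permutation of 3 values cannot give a two-sided p below 0.25. The calls therefore rest on the spread pooled over the 12 libraries, and the values by number are given beside them. Of the calls, 13 short genes and Trav12d-3, described last, passed the TPM filter only through the group where they were high, which fixed their calls beforehand.

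Across all genes the median shift was 0.11, made of a median knockdown difference of 0.09 in CH and of -0.02 in NP. That median shift was 0.07 with TPM rescaled without mt- genes. Median-ratio scaling moved it to -0.02, so lists of genes are reported relative to the median of all genes tested. All 3 paired values lay above the median gene in 18.4% of genes and below it in 17.9%. Between numbers the paired values correlated weakly over the 19237 genes (Pearson r 0.10, 0.06 and 0.10 for numbers 1 with 2, 1 with 3 and 2 with 3). Among the 8478 coding genes whose mean reached 10 TPM the coefficients were 0.35, 0.21 and 0.47. These are descriptions over genes, which share libraries and are not independent.

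**Figure D1:**
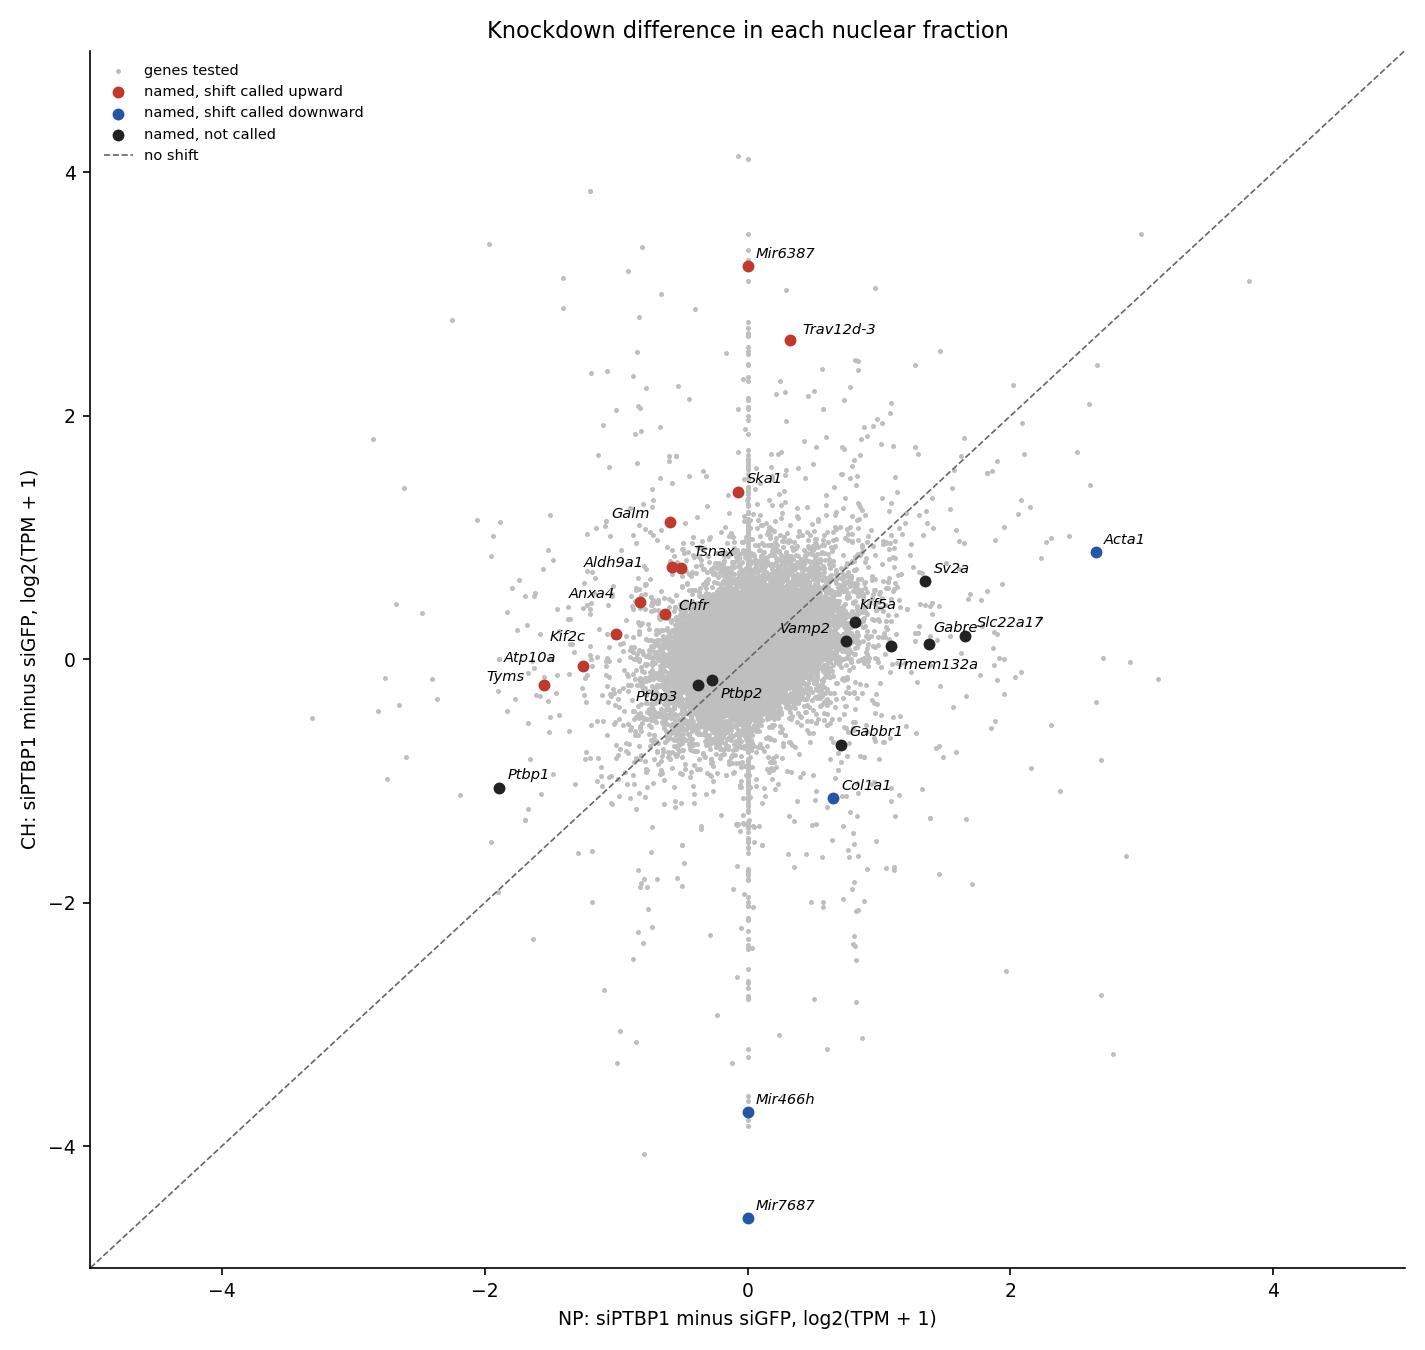
Knockdown difference, siPTBP1 minus siGFP on the log2(TPM + 1) scale, in NP (horizontal axis) and in CH (vertical axis) for the 19237 genes tested. Named genes that were called, added by smallest p or always named are marked, in red or blue if called and in black if not. Genes described only as members of a list are not marked. The dashed line marks equal differences in both fractions; the coding genes called upward lie above it and left of 0 in NP, and Gabbr1, Slc22a17, Acta1 and Col1a1 lie below it and right of 0.

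The genes whose ratio moved toward chromatin included 9 protein-coding genes: Galm, Ska1, Aldh9a1, Tyms, Anxa4, Tsnax, Kif2c, Atp10a and Chfr. Their shifts were 1.00 to 1.72 on the log2 scale. Some act in cell division: Kif2c is a kinesin that takes apart microtubule ends at centromeres, Ska1 is part of the outer kinetochore and Chfr is a ubiquitin ligase of a mitotic checkpoint. Both fractions enter the shift that chose these genes, so their values in CH and NP are a description. In NP all 9 differences lay below 0, at -1.55 to -0.07, and 5 were called lower (over all genes 1.09% were called lower and 1.51% higher). In CH the differences ran from -0.21 to 1.38 and 4 were called higher (over all genes 1.35% higher and 0.369% lower).

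Tyms (ENSMUSG00000025747, chromosome 5, 30058202 to 30073617, minus strand, mm10) encodes thymidylate synthase, which makes the thymidine nucleotide for DNA synthesis. In NP it had 95.7, 77.5 and 92.5 TPM in siGFP and 32.6, 24.4 and 32.4 in siPTBP1. In CH it had 39.8, 42.2 and 47.7 TPM in siGFP and 41.1, 31.5 and 39.3 in siPTBP1. The 2 treatments did not overlap in NP, where Tyms fell by 1.55 on the log2 scale (adjusted p = 0.000511), and overlapped in CH, where the difference was -0.21 (adjusted p = 0.392). The log ratio of CH to NP was -1.02 ± 0.20 in siGFP and 0.32 ± 0.04 in siPTBP1 (SD, n = 3), a shift of 1.33 with a standard error of 0.16 (paired values 1.57, 1.22 and 1.21, adjusted p = 0.0138).

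Kif2c (ENSMUSG00000028678, chromosome 4, 117159639 to 117182639, minus strand) also moved through a lower NP level. It had 49.9, 54.0 and 58.4 TPM in siGFP NP and 23.2, 26.9 and 29.9 in siPTBP1 NP. Its CH levels were 101, 143 and 152 TPM in siGFP and 116, 172 and 170 in siPTBP1. NP levels were separated between treatments (log2 difference -0.998, adjusted p = 0.00412) and CH levels overlapped (0.21, adjusted p = 0.403). The shift was 1.20 with a standard error of 0.16, and its paired values of 1.26, 1.24 and 1.11 lay close together (adjusted p = 0.0255).

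Ska1 (ENSMUSG00000036223, chromosome 18, 74195299 to 74207818, minus strand) moved in the other fraction. CH held 10.8, 21.8 and 22.4 TPM in siGFP and 26.5, 72.1 and 53.7 in siPTBP1, with no overlap (log2 difference 1.38, adjusted p = 0.0017). NP held 3.65, 7.78 and 8.48 TPM in siGFP and 3.95, 7.81 and 6.65 in siPTBP1, so the treatments overlapped there (-0.07, adjusted p = 0.896). The number 1 libraries were the lowest in every group, and the pairing takes that difference out of the shift of 1.45 (standard error 0.20, paired values 1.14, 1.68 and 1.53, adjusted p = 0.0294).

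Galm (ENSMUSG00000035473, chromosome 17, 80127471 to 80185101, plus strand), galactose mutarotase, had the largest called shift of a coding gene, 1.72 with a standard error of 0.22 (adjusted p = 0.0198). CH rose from 2.57, 3.41 and 2.95 TPM to 6.58, 9.22 and 7.37 (adjusted p = 0.0111), while NP had 5.29, 6.09 and 6.66 TPM in siGFP and 4.28, 3.47 and 3.24 in siPTBP1 (adjusted p = 0.0807). Both fractions were separated between treatments, in opposite directions. At these low TPM values the pseudocount matters: the shift was 1.02 with a pseudocount of 5.

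**Figure D2:**
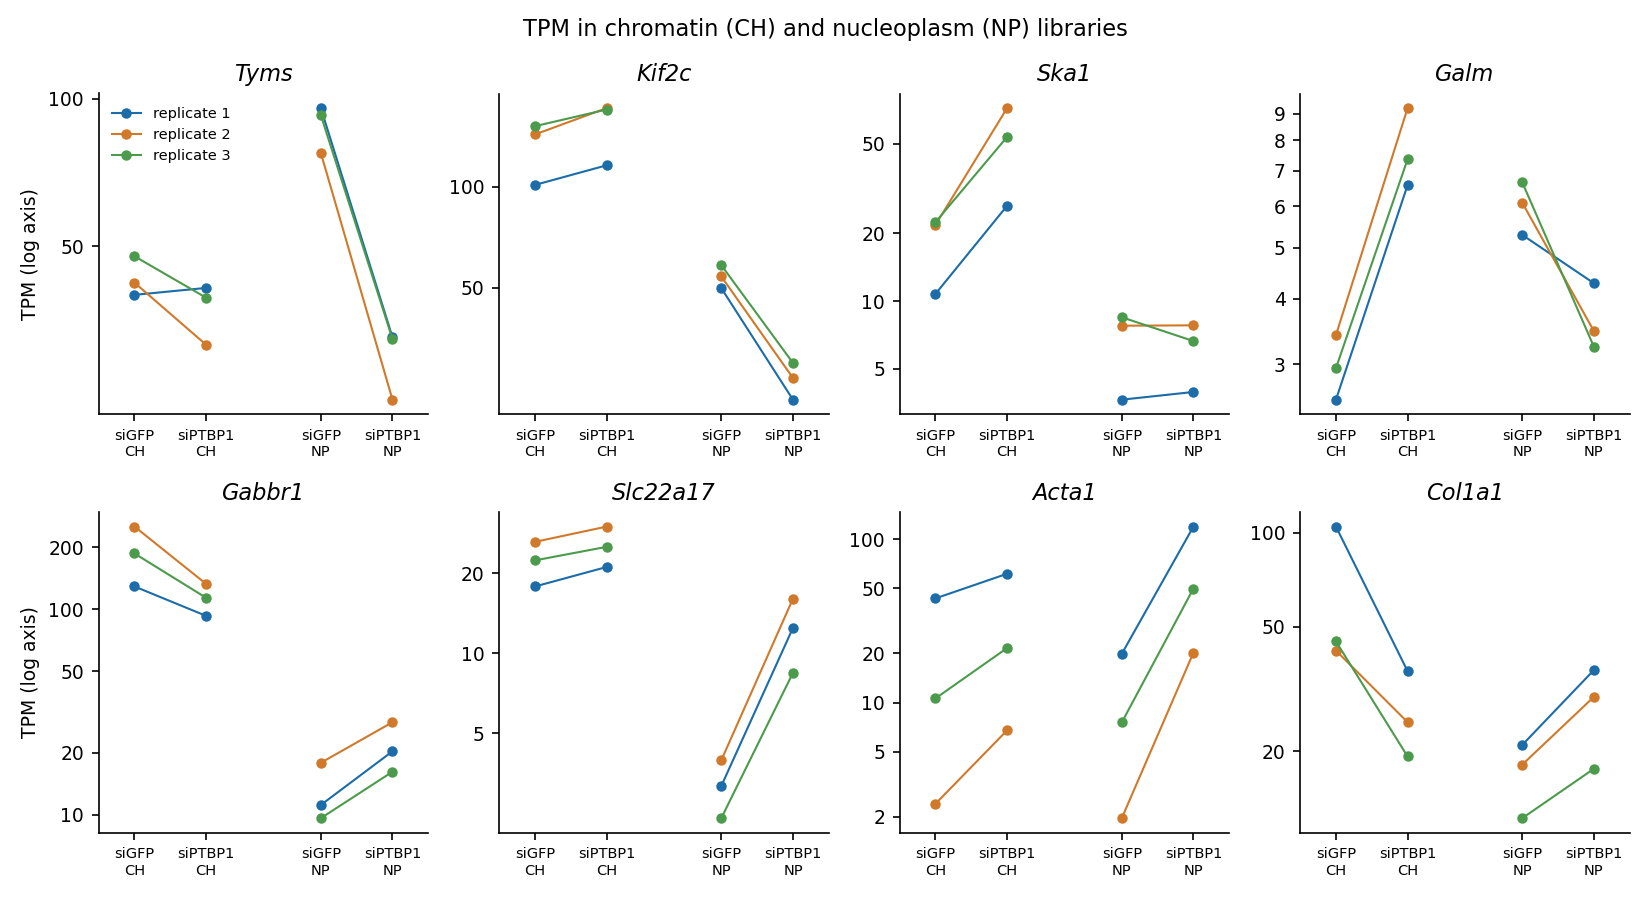
TPM (log axis) of 8 described genes in the CH and NP libraries; points joined by a line are the siGFP and siPTBP1 libraries of 1 replicate number. Lines for Tyms and Kif2c fall in NP, those of Ska1 and Galm rise in CH, and those of Gabbr1 and Col1a1 fall in CH and rise in NP.

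The other 5 coding genes had calls in 1 fraction each. Aldh9a1, an aldehyde dehydrogenase, went from 90.9 ± 17.5 to 156 ± 38.5 TPM in CH and from 71.0 ± 4.98 to 47.2 ± 2.44 in NP (SD, n = 3; shift 1.34, adjusted p = 0.0493). Tsnax, the partner of translin, went from 29.5 ± 1.04 to 50.6 ± 7.52 in CH and from 30.6 ± 1.76 to 21.2 ± 0.84 in NP (shift 1.25, adjusted p = 0.0274). In both genes the CH rise was called (adjusted p = 0.0327 and 0.0188) and the NP difference was not (0.0679 and 0.0601). Anxa4, a calcium-dependent phospholipid-binding annexin, went from 21.7 ± 4.48 to 11.9 ± 2.44 in NP and Atp10a, a phospholipid flippase, from 16.7 ± 3.09 to 6.50 ± 1.77. Their shifts were 1.29 (adjusted p = 0.0152) and 1.20 (0.0493), with called falls in NP (0.00927 and 0.0025) and no call in CH (0.077 and 0.875). Chfr had a shift of 1.00 (adjusted p = 0.0493) with a called fall in NP (0.019). Exons of Chfr, Anxa4, Tsnax and Tmem132a overlap annotated transcripts on the other strand, those of Atp10a, Fmnl3 and Gabre overlap some on the same strand, and Col4a1 and Col4a2 overlap each other. The labels do not say how strand was used in quantification, so the levels of these genes are uncertain to that extent.

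In the cytoplasm, which the shift does not use, all 9 coding genes had a lower mean after siPTBP1, by -1.29 to -0.21, against 31.6% of all genes below 0. Tyms had 124, 133 and 144 TPM in siGFP CY and 64.1, 47.2 and 51.6 in siPTBP1 CY. Kif2c had 40.2, 63.2 and 64.7 and then 21.3, 26.2 and 33.4. Neither gene's treatments overlapped, nor did those of Aldh9a1, Anxa4 and Atp10a. In Galm, Ska1, Tsnax and Chfr the treatments did overlap in CY. The share of all genes without overlap in CY is not given here, so separation there only describes single genes. Genes absent from CY count as not below 0 in the share of all genes. No gene was called in CY in limma with the replicate block (0.0% in either direction, 2 residual degrees of freedom, 20.5% of genes at an unadjusted p under 0.05), and 4 were higher and 4 lower without the block.

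The calls of the 9 coding genes were sensitive to the fit. None of the 9 kept its call without the replicate block, and 1 (Kif2c) kept it without replicate 1, none without replicate 2 and none without replicate 3. Each kept a positive shift in all 16 alternatives, and over them the highest adjusted p of a gene was 0.496 to 1.00.

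Genes whose ratio moved toward nucleoplasm were 2 coding genes and 7 genes with transcripts under 200 nt. Col1a1 (ENSMUSG00000001506, chromosome 11, 94936224 to 94953042, plus strand), the alpha-1 chain of fibrillar collagen I, had 105, 42.0 and 44.9 TPM in siGFP CH and 36.1, 24.8 and 19.3 in siPTBP1 CH. In NP it had 20.98, 18.2 and 12.2 TPM in siGFP and 36.4, 29.9 and 17.6 in siPTBP1. CH levels did not overlap and fell (log2 difference -1.14, adjusted p = 0.021), whereas NP levels overlapped and were higher within each number (0.65, adjusted p = 0.104). The shift was -1.79 with a standard error of 0.27 (paired values -2.28, -1.43 and -1.67, adjusted p = 0.0493). Without the replicate block its adjusted p was 1.00.

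Acta1 (ENSMUSG00000031972, chromosome 8, 123891769 to 123894751, minus strand), skeletal muscle alpha-actin, rose in NP, and its difference in CH was smaller. NP held 19.9, 1.96 and 7.56 TPM in siGFP and 120, 20.2 and 49.97 in siPTBP1. CH held 43.5, 2.40 and 10.6 in siGFP and 61.5, 6.77 and 21.6 in siPTBP1. Number 1 was the highest and number 2 the lowest in each group, and siPTBP1 was higher within each pair in both fractions, although the treatments overlapped in CH. NP was called (log2 difference 2.65, adjusted p = 0.000467) and CH was not (0.88, adjusted p = 0.0506). The shift was -1.77 with a standard error of 0.27 (adjusted p = 0.0493). Acta1 lies within an intron of another gene on the opposite strand.

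Col1a1 and Acta1 were followed by 4 genes that missed the threshold. Slc22a17 (ENSMUSG00000022199, chromosome 14, 54906304 to 54913132, minus strand), a membrane protein of the solute carrier family, had 17.9, 26.3 and 22.4 TPM in siGFP CH and 21.1, 30.0 and 25.2 in siPTBP1 CH. In NP it had 3.16, 3.95 and 2.39 in siGFP and 12.5, 16.1 and 8.44 in siPTBP1. The NP rise was separated between treatments and called (log2 difference 1.65, adjusted p = 0.0025), while CH overlapped (0.19, adjusted p = 0.605). The shift was -1.46 with a standard error of 0.23 (paired values -1.46, -1.60 and -1.31, adjusted p = 0.055). Tmem132a, a transmembrane protein, had a shift of -0.98 (adjusted p = 0.0518) and Gabre, a GABA-A receptor subunit, of -1.26 (0.0678). Both likewise had a called rise in NP (1.09, adjusted p = 0.00236, and 1.38, adjusted p = 0.00308). Their means in CH were similar (29.1 ± 9.31 and 31.0 ± 6.90 TPM for Tmem132a, 4.53 ± 1.52 and 4.94 ± 1.01 for Gabre). Gabre was low in NP, with 0.7, 1.18 and 0.41 TPM in siGFP and 4.12, 4.38 and 2.35 in siPTBP1. At such levels the size of a difference depends on the pseudocount.

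Gabbr1 (ENSMUSG00000024462, chromosome 17, 37045966 to 37075067, plus strand) encodes a subunit of the GABA-B receptor and is a known PTBP1 target. CH held 129, 253 and 187 TPM in siGFP and 92.8, 133 and 114 in siPTBP1. NP held 11.1, 17.9 and 9.61 TPM in siGFP and 20.3, 28.2 and 16.2 in siPTBP1. CH was lower and NP higher in siPTBP1 within each number, and the treatments overlapped narrowly in both fractions. The log ratio of CH to NP was 3.77 ± 0.36 in siGFP and 2.36 ± 0.33 in siPTBP1 (SD, n = 3). The paired values of -1.29, -1.55 and -1.41 gave a shift of -1.41 with a standard error of 0.23, which missed the threshold (adjusted p = 0.0636), as did the differences in CH (-0.70, adjusted p = 0.0705) and NP (0.71, adjusted p = 0.0558). In CY Gabbr1 had 3.79, 4.77 and 4.57 TPM in siGFP and 8.67, 8.57 and 10.1 in siPTBP1, with no overlap (0.91, adjusted p = 0.112).

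Of the 26 genes that the naming rule picks individually, 5 have an intron that GENCODE M21 annotates as retained in a transcript of the gene. Since PTBP1 binds pyrimidine-rich sequence upstream of 3′ splice sites, the last 100 bases of each gene's most pyrimidine-rich such intron are given here, in the direction of transcription and ending at the intron's last base. Capitals mark every TCTT or CTCTCT on the transcribed strand. The windows were chosen after the values were seen, and no claim is made that PTBP1 binds them or that these introns were retained in these libraries.
Gabbr1 (chr17:37072044-37072143, plus strand, mm10): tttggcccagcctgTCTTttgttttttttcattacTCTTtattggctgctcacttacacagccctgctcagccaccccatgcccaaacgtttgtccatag
Slc22a17 (chr14:54908989-54909088, minus strand, mm10): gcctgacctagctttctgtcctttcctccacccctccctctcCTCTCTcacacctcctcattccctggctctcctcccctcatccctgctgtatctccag
Tmem132a (chr19:10859152-10859251, minus strand, mm10): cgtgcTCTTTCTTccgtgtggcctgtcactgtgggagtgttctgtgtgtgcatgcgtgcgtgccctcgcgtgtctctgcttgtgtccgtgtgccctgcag
Kif2c (chr4:117177970-117178069, minus strand, mm10): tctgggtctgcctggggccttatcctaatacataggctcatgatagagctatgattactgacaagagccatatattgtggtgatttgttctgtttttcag
Ptbp1 (chr10:79858852-79858951, plus strand, mm10): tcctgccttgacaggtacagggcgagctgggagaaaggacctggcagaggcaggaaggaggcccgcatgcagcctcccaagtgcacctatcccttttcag

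The windows held 69% (Gabbr1), 82% (Slc22a17), 63% (Tmem132a), 54% (Kif2c) and 45% (Ptbp1) pyrimidines. The windows of Slc22a17, Tmem132a and Ptbp1 are the richest of 8, 2 and 3 annotated retained introns, so these shares are not comparable with the median of 55% over all 6354 annotated windows of tested genes. TCTT was found 2 times in the windows of Gabbr1 and Tmem132a, and CTCTCT 1 time in that of Slc22a17. Among all windows 58.8% held TCTT and 9.84% held CTCTCT. Coding genes with an annotated retained intron (3223) had a median shift 0.01 above that of all genes, and those without (10640) 0.02 above it.

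The neuronal PTBP1 targets Sv2a, Vamp2 and Kif5a had negative shifts that were not called. Sv2a, a synaptic vesicle glycoprotein, had -0.71 (paired values -0.52, -0.87 and -0.75), Vamp2, the vesicle SNARE synaptobrevin, -0.60 (-0.81, -0.34 and -0.66) and Kif5a, a neuronal kinesin, -0.51 (-0.33, -0.60 and -0.60). Adjusted p-values were 0.263 to 0.332. In Sv2a NP rose from 4.78, 7.44 and 4.71 TPM to 14.4, 18.8 and 14.2 (adjusted p = 0.00375), while CH had 6.68, 8.25 and 6.36 in siGFP and 13.3, 10.9 and 10.7 in siPTBP1 (adjusted p = 0.0712). The treatments did not overlap in either fraction of Sv2a. For Vamp2 and Kif5a the NP rise was called (adjusted p = 0.0489 and 0.0112) and CH was not (0.711 and 0.231).

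The whole list of PTBP1 splicing targets held shifts in both directions. Of the 17 tested of 18 listed, none was called, 3 had all paired values above the median gene and 7 below, and their median shift was -0.12 relative to all genes. Relative to all genes that median turned to 0.09 without replicate 3, and it was -0.03 against genes of like GC content. Flna, the actin crosslinker filamin A, had a shift of 1.41 (adjusted p = 0.249): its NP level fell from 124 ± 26.0 to 41.7 ± 9.80 TPM (adjusted p = 0.0214) while CH stood at 799 ± 345 and 693 ± 188. Among the PTB proteins, Ptbp1 itself had a shift of 0.84 (paired values 0.38, 0.83 and 1.30, adjusted p = 0.254), Ptbp2 of 0.10 (0.891) and Ptbp3 of 0.17 (0.877). For Ptbp1 both fractions fell, by 1.89 in NP (adjusted p = 0.00184) and by 1.05 in CH (adjusted p = 0.0177) on the log2 scale. Ptbp1 exons overlap other annotated transcripts on both strands.

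**Figure D3:**
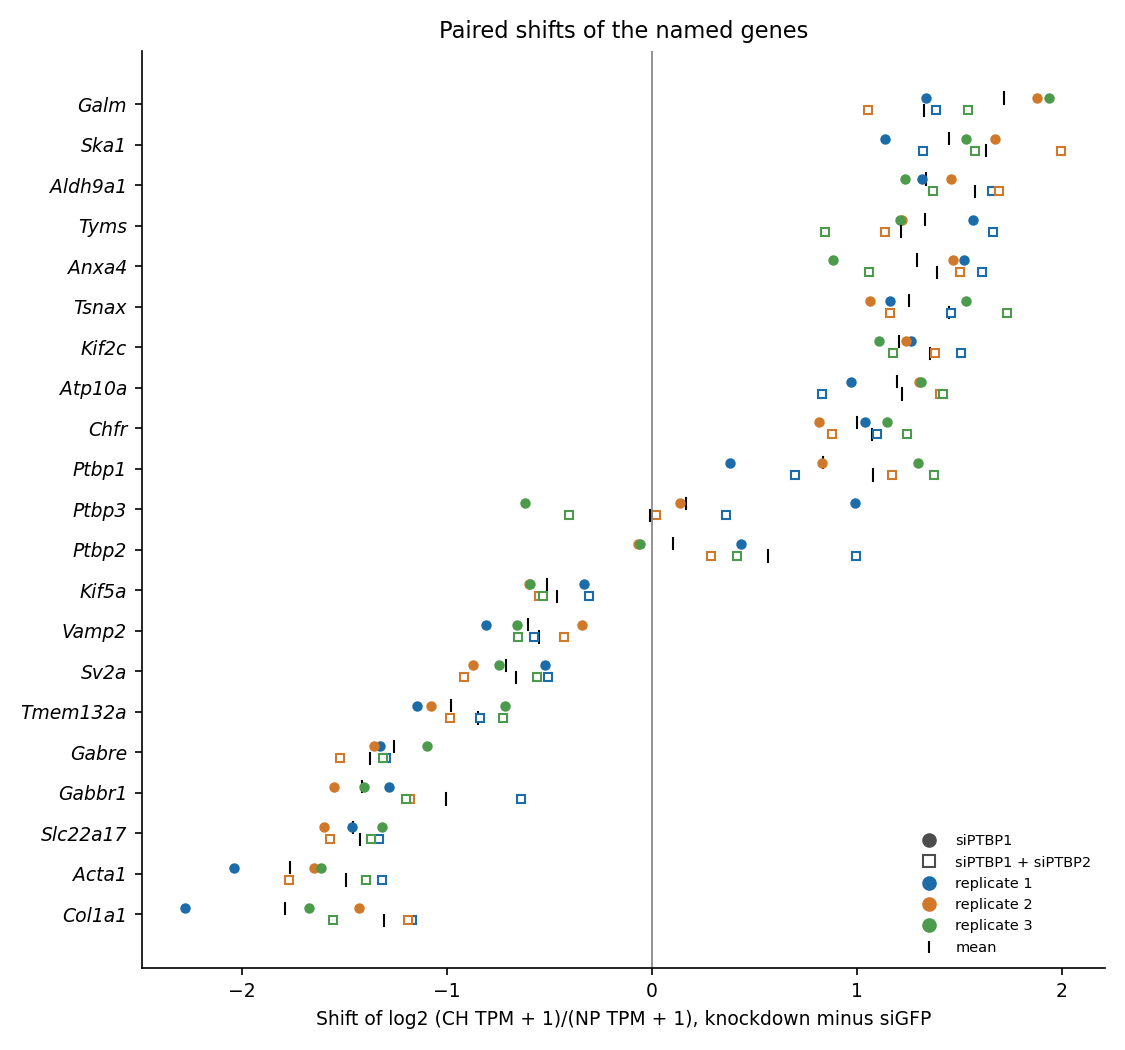
Paired shifts by replicate number (colours) for 21 named genes; filled circles are siPTBP1, open squares the double knockdown, and the vertical bar is the mean of 3. Both knockdowns are set against the same siGFP libraries, so the rows of circles and squares are not independent; the siPTBP1 values run from -2.28 (Col1a1, number 1) to 1.94 (Galm, number 3).

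The double knockdown shares its siGFP libraries with the single knockdown, and its values are given side by side only. Its second target was little lower on chromatin: Ptbp2 had 67.5 ± 38.7 TPM in siGFP CH, 57.5 ± 29.6 in siPTBP1 CH and 54.9 ± 27.3 in siPTBP1_PTBP2 CH (SD, n = 3). In NP it had 15.8 ± 6.97, 13.3 ± 6.62 and 9.12 ± 4.85 TPM. The ranges of 1 SD overlapped in both fractions, but these SDs hold the spread between numbers. By number, Ptbp2 had 22.8, 91.7 and 87.8 TPM in siGFP CH and 7.81, 19.4 and 20.3 in siGFP NP. Overlap of the ranges therefore does not show whether Ptbp2 was lower within a number. The double knockdown had 33 genes called upward (0.172%) and 4 downward (0.0208%). Shifts in siPTBP1 and in the double knockdown were 1.33 and 1.22 for Tyms, 1.20 and 1.36 for Kif2c, and 1.45 and 1.63 for Ska1. They were 1.72 and 1.33 for Galm, -1.46 and -1.42 for Slc22a17, and -1.41 and -1.01 for Gabbr1. The difference between both knockdowns was tested over their 12 libraries, and 3 genes were higher (0.0156%) and 4 lower (0.0208%) in the double knockdown, each with a transcript under 200 nt (1.93% of genes had an unadjusted p under 0.05). For Gabbr1 the difference was 0.41 (adjusted p = 1.00).

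Contractile genes had shifts in both directions. Of 24 tested of 26 listed, 7 had all 3 paired values above the median gene and 9 below (18.4% and 17.9% of all genes), and Acta1 was the 1 call. Tpm2, a tropomyosin, had a shift of 1.86 that missed the threshold (paired values 1.25, 2.30 and 2.03, adjusted p = 0.055). Its CH levels were 33.5, 35.9 and 31.9 TPM in siGFP and 46.7, 85.9 and 64.1 in siPTBP1, and its NP levels 46.8, 41.6 and 36.1 and then 26.8, 19.4 and 17.0. Neither fraction overlapped between treatments. The NP fall was called (adjusted p = 0.0451) and the CH difference of 0.90 was not (0.0704). Fmnl3, a formin that assembles actin filaments, had a shift of 1.33 (adjusted p = 0.123) with a called fall in NP from 11.9 ± 1.44 to 3.79 ± 1.10 TPM (adjusted p = 0.007).

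The lists of hnRNP and SR protein genes lay above the median gene, without a single call. All 23 hnRNP genes, which coat nascent transcripts and include the family to which PTBP1 belongs, had a shift above the median of all genes, and 20 had all 3 paired values above it (18.4% of all genes do). Their median shift was 0.34 relative to all genes and 0.59, 0.27 and 0.20 by number. Hnrnpa1 had a shift of 0.68 (paired values 0.96, 0.56 and 0.51, adjusted p = 0.23). Its NP levels were 597, 932 and 1089 TPM in siGFP and 401, 618 and 768 in siPTBP1, lower within each number although the treatments overlapped. Its CH levels were 514, 903 and 1032 TPM in siGFP and 670, 882 and 1039 in siPTBP1. All 23 hnRNP genes had a difference below 0 in NP, as did 53.3% of all genes, and 3 were called (1.09% of all genes were called lower there). The list's median difference was -0.39 in NP, 0.12 in CH and 0.10 in CY.

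Of 13 genes for SR proteins and Tra2, regulators of splicing, 9 had all paired values above the median gene and none below. Their median was 0.30 relative to all genes. Srsf3 had a shift of 0.67 (paired values 1.29, 0.36 and 0.37, adjusted p = 0.266). Among 53 RNA helicases 23 were above in all pairs and 4 below, with a median of 0.19. Dhx36, a helicase that unwinds G-quadruplexes, had the largest shift of these, 1.03 (adjusted p = 0.055), with CH at 46.3 TPM in siGFP and 76.2 in siPTBP1 on average and NP at 17.0 and 13.4. Genes known for nuclear detained introns, which hold finished but incompletely spliced RNA in the nucleus, had 11 of 21 above and none below (median 0.16). Proteasome subunits had 12 of 39 above and 4 below (median 0.25), and kinesins, a list chosen after the values were seen, 12 of 31 above and 2 below (median 0.18).

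Cytosolic ribosomal protein genes differed between the 3 pairs. Their median relative to all genes was 0.22 over the means but 0.49, -0.18 and 0.16 by number, and it was 0.02 without replicate 1. Of the 89 tested, 19 had all paired values above the median gene and 3 below.

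Synapse genes had shifts mostly below the median gene. Of 23 synapse genes tested of 27 listed, 2 had all paired values above the median gene and 15 below (17.9% of all genes are below), with a median of -0.41 relative to all genes and -0.58, -0.41 and -0.25 by number. Of these, 5 are also in the list of PTBP1 splicing targets. Nlgn2, a postsynaptic adhesion protein, had a shift of -0.81 (paired values -0.50, -0.87 and -1.05, adjusted p = 0.25). In NP 21 of the 23 synapse genes had a difference above 0 and 5 were called (1.51% of all genes were called higher there). The list's median difference was 0.29 in NP, 0.09 in CH and 0.30 in CY.

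Endoplasmic reticulum and matrix genes had 10 of 23 below in all pairs and none above (median -0.24 relative to all genes, 0.05, -0.50 and -0.50 by number). All 23 had a difference above 0 in NP, with 3 calls (1.51% of all genes were called higher there). The part of RNA from outside the nucleus in these NP values was not tested. Col4a2 and Col4a1, the paired chains of basement membrane collagen IV, had shifts of -1.44 (adjusted p = 0.176) and -1.21 (0.196). Col4a2 had 50.8, 26.7 and 19.8 TPM in siGFP CH and 29.6, 18.6 and 15.2 in siPTBP1 CH. In NP it had 13.7, 15.7 and 13.0 TPM and then 28.5, 31.7 and 22.2. Its NP levels did not overlap between treatments and its CH levels did. Lama1, a laminin chain, and Ssr2, which serves protein translocation into the endoplasmic reticulum, had shifts of -0.62 (0.263) and -0.53 (0.266).

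After these values were seen, 3 wider lists were drawn up by symbol as a description. Collagens and laminins had 22 of 38 genes below in all pairs and none above (median -0.42 relative to all genes). This list holds the called Col1a1 and shares members with the endoplasmic reticulum and matrix list and with the fibroblast markers. These 3 lists are therefore not separate observations. Solute carriers had 104 of 220 below and 21 above (median -0.25, and -0.31, -0.28 and -0.26 by number). Genes named Tmem had 65 of 190 below and 13 above (median -0.14). Slc11a2, an iron transporter, had a shift of -0.60 (adjusted p = 0.217). Not every carrier was below: Slc25a15 and Slc25a30, mitochondrial carriers, had 0.78 (0.168) and 0.79 (0.217).

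**Figure D4:**
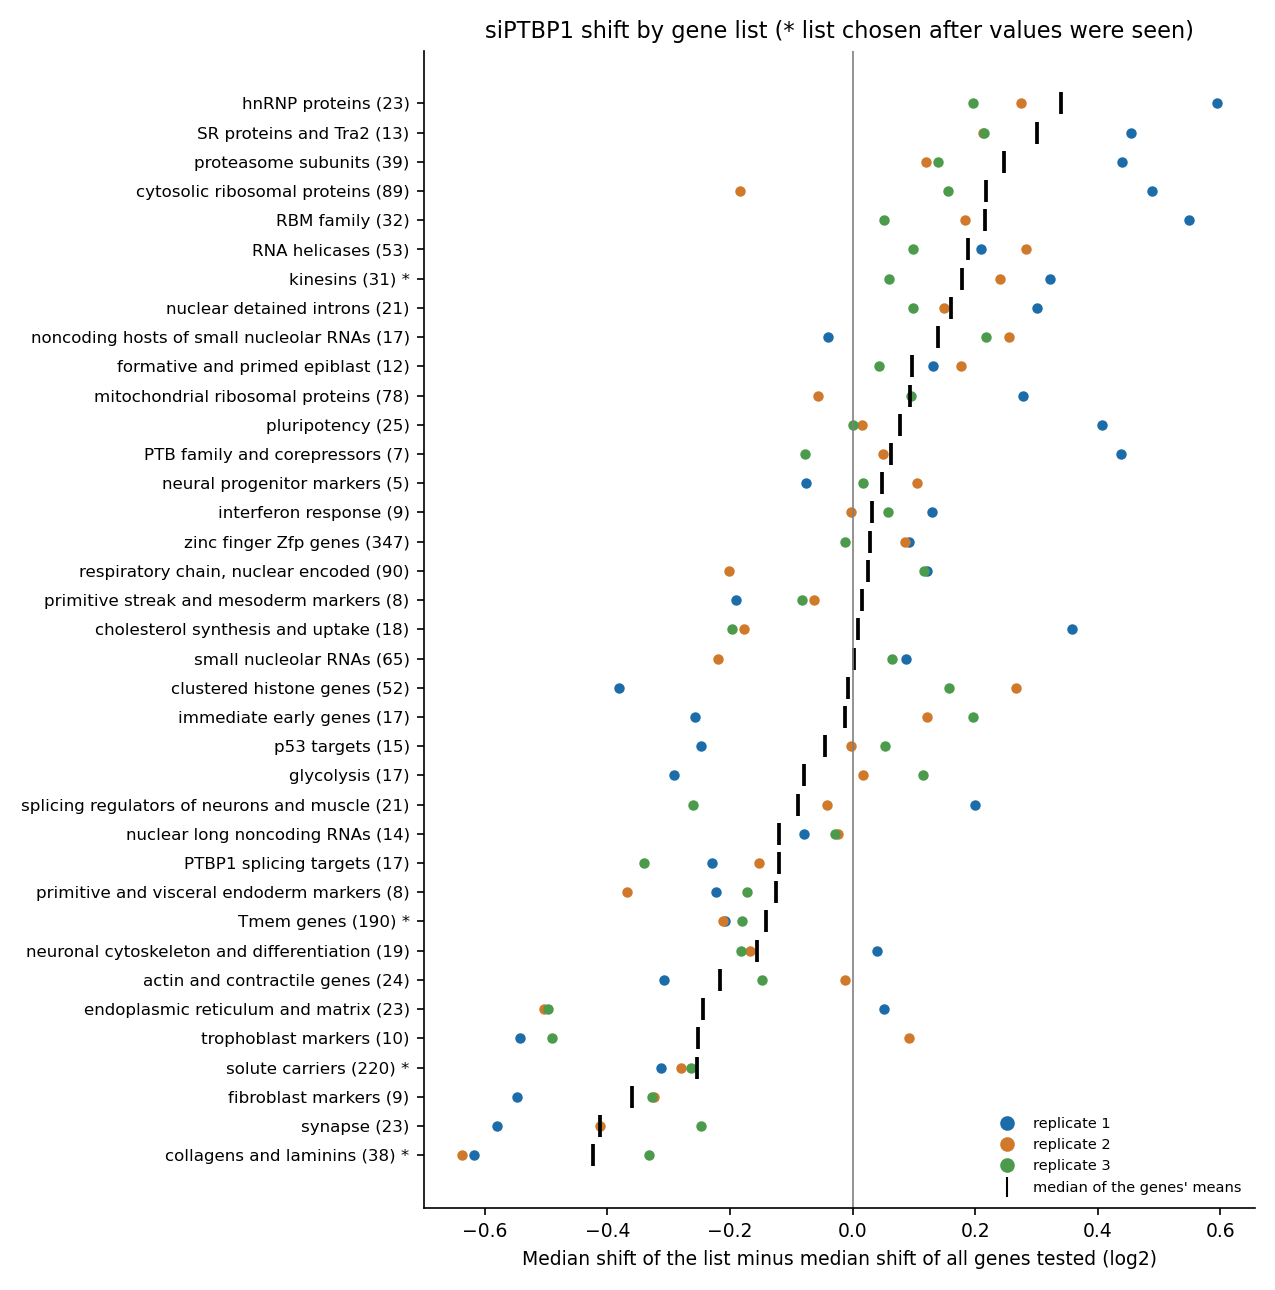
Median shift of each gene list minus the median of all genes tested (log2), by replicate number (points) and for the genes' means (bars), with the number of genes tested in brackets. The hnRNP and SR protein lists are above 0 in all 3 pairs and the synapse and collagen lists below 0, while cytosolic ribosomal protein genes lie on both sides.

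The signs of the hnRNP, SR protein, helicase, proteasome, synapse, collagen, solute carrier and endoplasmic reticulum medians relative to all genes did not change with TPM rescaled without mt- genes, median-ratio scaling, quantile normalization or without any 1 replicate number. GC content moved with the shift and with these lists, and its part in them was not tested beyond the values given here. When coding genes were put in 5 equal bins by GC content of the longest transcript, those from 43.9% to 48.1% had a median shift 0.21 above all genes and those from 55.9% to 76.3% had one 0.20 below. Most of that came from number 1, where these bins stood at 0.52 and -0.47, against 0.09 and -0.13 in number 2 and 0.04 and -0.02 in number 3. The median GC content was 43.6% for hnRNP genes, 42.8% for SR genes, 54.2% for synapse genes and 56.4% for collagens and laminins, with 50.1% over tested coding genes.

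Set against coding genes of like GC content (20 bins), the list medians were 0.27 for hnRNP genes, 0.18 for SR genes, -0.44 for synapse genes, -0.39 for collagens and laminins, -0.41 for endoplasmic reticulum and matrix genes and -0.24 for solute carriers. They were 0.06 for genes with detained introns, 0.04 for the RBM family and 0.16 for proteasome subunits, which stood at 0.16, 0.22 and 0.25 without that step. The medians that follow are relative to all genes, without the GC step, and leaving out 1 number moved some by over 1.5 times. With no number left out they were -0.24 for endoplasmic reticulum and matrix genes and -0.36 for fibroblast markers. For cytosolic ribosomal proteins and kinesins they were 0.22 and 0.18. Without replicate 1 they were 0.09 for proteasome subunits, -0.51 for endoplasmic reticulum and matrix genes and -0.23 for fibroblast markers. Without replicate 2 they were 0.26 for detained introns, 0.35 for cytosolic ribosomal proteins, 0.11 for kinesins and -0.16 for endoplasmic reticulum and matrix genes, and without replicate 3 -0.13 for these, 0.35 for the RBM family and 0.28 for kinesins. The coding genes called upward had 46.3% to 51.7% GC and stood 0.73 to 1.48 above their GC bins.

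**Figure D5:**
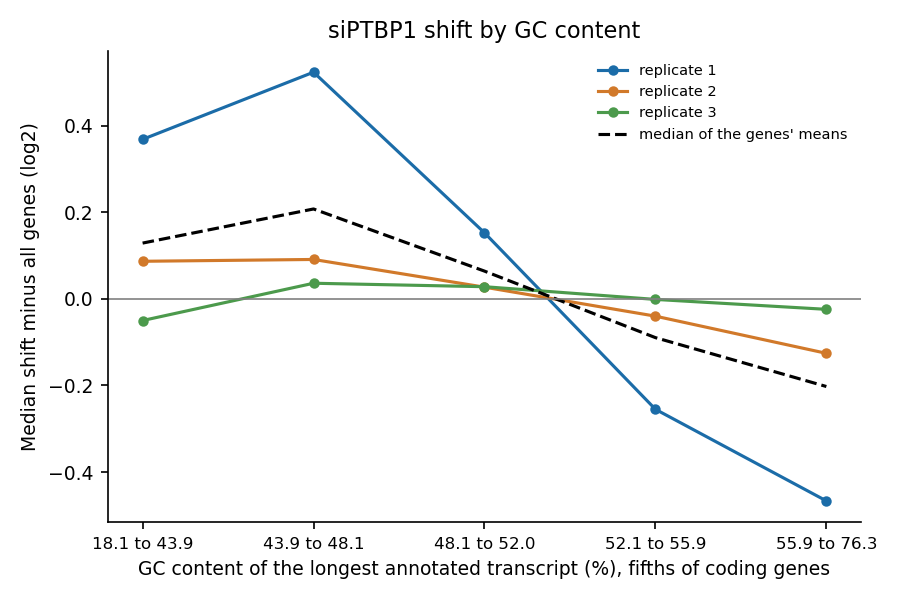
Median shift minus that of all genes (log2) by 5 equal bins of GC content of coding genes, for each replicate number (lines) and for the genes' means (dashed). The slope is steep in number 1, from 0.52 in the bin from 43.9% to 48.1% to -0.47 in the highest, and shallow in numbers 2 and 3.

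The shift also moved with gene span, to a lesser degree than with GC content, and was higher for longer genes. Its median lay 0.08 below all genes in the shortest of 5 equal bins of coding genes (up to 7882 bases). In the longest bin (from 67905 bases) it lay 0.08 above. By number the longest bin stood at 0.27, 0.04 and -0.05. Coding genes with no intron stood at 0.03 and those with 20 or more at 0.04 relative to all genes.

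Stem cell genes lay on both sides of the median gene. The 25 pluripotency genes summed to 2757 to 6020 TPM in the 12 libraries, and 9 had all paired values above the median gene and 5 below. Their median was 0.08 relative to all genes and turned to -0.02 without replicate 1. Nanog, a core pluripotency factor, had a shift of 0.59 (paired values 1.06, 0.47 and 0.25, adjusted p = 0.266), and Gdf3, a ligand of the TGF-beta family, -0.49 (0.331). Markers of other cell types held less RNA: 5 of 12 neural progenitor markers were tested and summed to 34.2 to 106 TPM, 8 of 14 endoderm markers to 137 to 511, 8 of 11 mesoderm markers to 12.9 to 40.1, 10 of 11 trophoblast markers to 47.4 to 995 and 9 of 13 fibroblast markers to 139 to 306. No listed marker was at 0 in all 12 libraries. The remaining 15 lists shown in the plot of list medians, among them histones, respiratory chain genes, p53 targets and glycolysis, had medians from -0.16 to 0.14 relative to all genes and no call. The trophoblast sum was largely Krt8 and Krt18 in number 1. Fibroblast markers, which include Col1a1, had a median of -0.36 relative to all genes, and the part of such cells in the Col1a1 shift was not tested.

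The remaining calls were short noncoding genes. Transcripts under 200 nt made up 6 of the 16 genes called upward and 7 of the 9 called downward. Each of these 13 was listed at 0 in all 6 NP libraries and in all 3 CH libraries of 1 treatment, so it passed the TPM filter only through the group where it was high and its call supports nothing. Mir7687, in an intron of Gse1, had 44.0, 13.7 and 20.3 TPM in siGFP CH and was listed at 0 in siPTBP1 CH. Mir466h, in an intron of Sfmbt2, had 16.1, 7.01 and 15.7 and was then listed at 0. Mir6387, in an intron of Trib2, was listed at 0 in siGFP CH and had 6.55, 6.23 and 14.2 TPM in siPTBP1 CH. The shifts of their hosts were not called: Gse1 had a shift of -0.04 (adjusted p = 0.949), Sfmbt2 of 0.35 (0.47) and Trib2 of 0.34 (0.562). A value of exactly 0 in such a table can be a failed estimate, a TPM of a short transcript depends on how fragment length is corrected, and polyA+ libraries do not measure mature miRNAs, so no fold is given.

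Mature sequences of Mir7687 and Mir6387 from RefSeq (GRCm38.p6) identify these loci, with the seed (bases 2 to 8) in capitals; the 3 seeds differ.
mmu-miR-7687-5p: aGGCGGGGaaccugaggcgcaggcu
mmu-miR-7687-3p: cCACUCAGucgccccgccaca
mmu-miR-6387: uGGAAUGGcuucccuuguguau

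Trav12d-3, a T cell receptor variable segment with a transcript of 347 nt, had the same pattern: it was listed at 0 in siGFP CH and had 4.03, 3.75 and 8.82 TPM in siPTBP1 CH, the 1 group through which it passed the filter. It was listed at 0 in 5 of the 6 NP libraries.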

How the data were processed

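Polyadenylated RNA of 27 libraries was measured, and the 12 CH and NP libraries of siGFP and siPTBP1 enter the shift. The values are the TPM per gene that the authors deposited; STAR, kallisto and mm10 are named per the submitters' processing notes, with versions not given in the sources used here. TPM keeps no depth. Gene types, coordinates, transcript length and GC content come from GENCODE M21, which held 53274 of the 53379 gene IDs.

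Every gene's log2(TPM + 1) entered a linear model in limma 3.58.1 (R 4.3.3) with moderated, two-sided tests (eBayes, trend and robust on) and with the replicate number as a block, 6 residual degrees of freedom and Benjamini-Hochberg adjustment over the 19237 genes tested. The log2(TPM + 1) scale understates changes of low genes. The CH and NP differences come from the same fit; CY and the double knockdown were fitted likewise on their own libraries. The procedure was tested on simulated data with noise drawn independently for each library, a setting that these libraries need not follow. What a number marks is not in the labels, and p-values measure only the spread between these libraries. Deviations from group means correlated at 0.215 or more between libraries of 1 number (median 0.396) and at most at 0.0837 between other numbers in other groups; all 12 libraries correlated best with their own number, so the numbers were taken as pairing them.

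Genes named are those called, at 1 TPM or more on average, with paired values of 1 sign and no predicted name (up to 15 a direction), further genes by smallest p up to 8 a direction, Ptbp1, Ptbp2, Ptbp3, Vamp2, Sv2a, Kif5a, Gabbr1, and up to 4 of each list described; 1 further gene is not reported here. The members and 33 lists were chosen with earlier results of these data known, and 4 lists, the intron windows, the GC bins, the limit of 200 nt and the test between knockdowns after the values were seen. Alternatives were other pseudocounts, filters, scalings, variance settings and samples, no block, and each number left out. Genes counted in a list are gene IDs.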

Additional observations from a re-analysis of the deposited data

Results flagged for a closer look

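For 11 named coding genes the siPTBP1 difference in CH was called different from that in NP by the test of the difference itself (limma, adjusted p under 0.05). None of these calls was kept without the replicate block or with the 3 paired values alone. The shifts were 1.72 for Galm, 1.45 for Ska1, 1.34 for Aldh9a1, 1.33 for Tyms, 1.29 for Anxa4, 1.25 for Tsnax, 1.20 for Kif2c, 1.20 for Atp10a and 1.00 for Chfr. They were -1.79 for Col1a1 and -1.77 for Acta1. The same test picked out 4 named genes listed at 0 throughout 1 treatment of CH, where the filter fixed the outcome: the fitted values of 3.23 (Mir6387), 2.30 (Trav12d-3), -4.59 (Mir7687) and -3.72 (Mir466h) depend on the pseudocount, are not folds and support no difference.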

How the results depend on the processing

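Of the 15 named calls of the shift, 3 were kept without the replicate block (the miRNA genes, whose calls the TPM filter fixed), none with the 3 paired values alone, and 2, 4 and 1 without replicates 1, 2 and 3; no called gene changed direction. Genes higher and lower in the shift were 16 and 9; leaving out 1 replicate number gave 11 to 22 and 12 to 21. Genes higher were 7 without the replicate block, 9 with no filter, 6 with quantile normalization, 26 with all 27 libraries and the block, 9 with 27 libraries and no block, 6 with a pseudocount of 5, 9 without trend and robust settings and 0 with the paired values alone. Genes lower were 14 with median-ratio scaling, 4 with quantile normalization, 5 with 27 libraries and no block, 1 with a pseudocount of 5, 5 with at least 5 TPM in at least 6 libraries, 5 with transcripts of at least 200 nt only and 0 with the paired values alone. In CH, 260 genes were higher and 71 lower: 16 and 9 without the block, 98 higher with median-ratio scaling, 132 higher with quantile normalization, and 23 to 80 and 19 to 42 without 1 replicate number. In NP, 290 were higher and 209 lower: 6 and 4 without the block, 109 and 60 with no filter, 532 higher with median-ratio scaling, 157 and 86 with quantile normalization, and 16 to 119 and 11 to 109 without 1 replicate number. In CY, none was called; 4 and 4 were without the block, 22 and 6 with no filter, and 0 without 1 replicate number. The double knockdown's 33 and 4 were 1 and 0 without the block, 11 higher with no filter, 20 higher with TPM rescaled without mt- genes, 15 and 7 with median-ratio scaling, 2 and 2 with quantile normalization, and 3 to 12 and 6 to 22 without 1 replicate number. Causes were not tested. Depth is unknown in TPM, so what it limits could not be given.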
